A study of Mus musculus with 8 samples.

Results

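The mRNAs studied here are those encoded by the mitochondrial genome, followed by array probe in muscle with and without *Grsf1*. They were chosen by Ensembl transcript identifier, by a rule that uses no measured value, from a list of 10 transcripts (*mt-Nd1*, *mt-Nd2*, *mt-Co1*, *mt-Co2*, *mt-Atp6*, *mt-Co3*, *mt-Nd4*, *mt-Nd5*, *mt-Nd6* and *mt-Cytb*). On the array, 8 of the 10 had a probe, of 22919 named genes with one, and these were 7 of the 9 mRNAs from the heavy-strand promoter and *mt-Nd6*, the 1 from the light-strand promoter. No probe carried the identifier of *mt-Atp6* (ENSMUST00000082408) or *mt-Co3* (ENSMUST00000082409), which are not analysed further. All 8 probes passed the detection filter.

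Both strands of mitochondrial DNA are transcribed into long RNAs, which are cut into mRNAs, rRNAs and tRNAs. The heavy-strand transcript gives rise to all mRNAs except *mt-Nd6*, and the light-strand transcript carries *mt-Nd6*, several tRNAs and long stretches that are antisense to heavy-strand genes and are normally degraded. The proteins made from these mRNAs are core subunits of respiratory complexes I, III, IV and V, which skeletal muscle needs in large amounts for ATP production. GRSF1 is a nuclear-encoded protein that binds G-rich RNA in mitochondrial RNA granules, and light-strand RNAs such as *mt-Nd6* are rich in G. In earlier work on cultured cells GRSF1 was found on *mt-Nd6* RNA among others.

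Total RNA of thigh muscle was compared between 3 Grsf1cKO and 3 WT mice, all male and 17 months old. In Grsf1cKO mice *Grsf1* with floxed exons IV and V was recombined by Cre under the control of *Myf5*, a gene of muscle precursor cells. Cells of other origin in the muscle thus keep *Grsf1*. The paper calls the knockout progeny homozygous, while the control mice are labeled as wild type with no further allele. The labels name the vastus intermedius and the paper names the rectus femoris, both muscles of the quadriceps. The RNA was read on Agilent arrays of 1 color (Cy3), and since WT 1 and Grsf1cKO 1 were each measured again, 6 mice gave 8 arrays. The mouse is the replicate, and in whole muscle fewer cells of a type and less RNA per cell cannot be told apart.

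Slide 1 held only WT mice, namely WT 2 and WT 1 on its first measurement. Slide 2 held the remaining 6 arrays, those of all Grsf1cKO mice among them. The share of spots well above background, by the scanner software's own flag, was 66.3% to 73.1% on 7 arrays and 88.9% on the repeat array of Grsf1cKO 1, which therefore stood apart. The probe of *Grsf1* read 12.02 to 12.15 on the log2 scale in the Grsf1cKO mice, against 14.25 to 14.30 among their controls, as the labels would have it. The log2 difference was -2.19 (adjusted p = 0.00328 from limma). Where its probe lies relative to the deleted exons is not known here. Of the 50 marker genes of skeletal muscle, fiber type and other cell types with a probe, all were well above background in every mouse, and those of fast fibers and of skeletal muscle (*Acta1*, *Ckm* and others) included some of the brightest probes of the array.

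*mt-Nd6* encodes a membrane subunit of complex I. Its probe, A_55_P2061645, of identifier ENSMUST00000082419, was brighter on every Grsf1cKO array than on any WT array, before any normalization between arrays. The processed signal, from which the software had subtracted background, was 597 on the first and 629 on the repeat array of Grsf1cKO 1, 657 in Grsf1cKO 2 and 589 in Grsf1cKO 3. It was 179 on the first and 149 on the repeat array of WT 1, 204 in WT 2 and 203 in WT 3. The dimmest Grsf1cKO array thus had 2.88 times the signal of the brightest WT array.

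**Figure D1:**
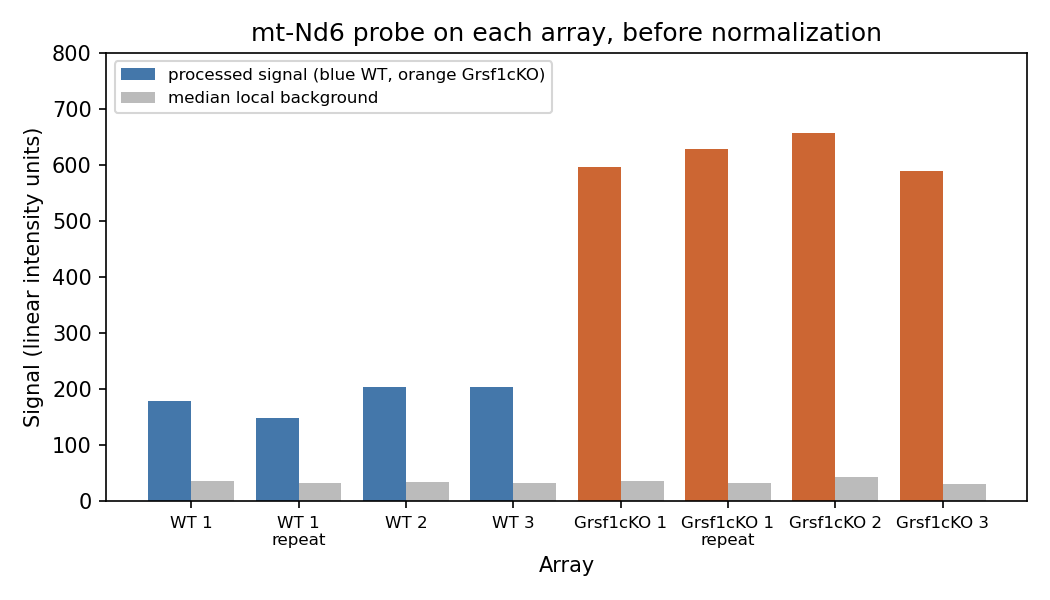
Processed signal of the *mt-Nd6* probe (blue, WT; orange, Grsf1cKO) and the median local background around the spot (gray) on each of the 8 arrays, in linear intensity units. All 4 Grsf1cKO arrays lie between 589 and 657 and all 4 WT arrays between 149 and 204, while the background lies between 31 and 44 on every array.

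The uncorrected median brightness of the same spot was 622 to 715 on Grsf1cKO arrays and 200 to 262 on WT arrays, over a local background of 31 to 44. The spot was flagged well above background on all 8 arrays, and was not saturated or marked as an outlier on any of them. The background around it was marked as non-uniform or as an outlier on 2 arrays, those of Grsf1cKO 2 and the first of Grsf1cKO 1. The repeat array of Grsf1cKO 1, on which this flag was absent, gave 629 against 597.

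After quantile normalization, which gives every array the same distribution of signals, the log2 signal of *mt-Nd6* was 8.99, 9.37 and 9.32 in Grsf1cKO 1, 2 and 3, with the arrays of a mouse averaged. It was 7.48, 7.81 and 7.83 in WT 1, 2 and 3. The groups did not overlap, and the lowest Grsf1cKO mouse, Grsf1cKO 1, was 1.29 above the WT mean. The Grsf1cKO mean was 9.23 ± 0.20 (SD, n = 3). The WT mean was 7.70 ± 0.20 (SD, n = 3). The log2 difference was 1.53 (standard error 0.153 from limma), a 2.88-fold higher normalized signal in Grsf1cKO with a 95% confidence interval of 2.22-fold to 3.73-fold.

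The difference was larger than the spread between mice, but it did not pass all criteria used by the study (fold change over 1.5, unadjusted p under 0.01 and a false discovery rate under 0.2). Over the 38888 probes tested with limma, *mt-Nd6* had an unadjusted p of 5.95e-05 and an adjusted p of 0.578 with Benjamini-Hochberg adjustment, so that it met the first 2 criteria and missed the third. The 2-sided exact permutation test over the 6 mice gave p = 0.1, the smallest that 3 mice against 3 allow. Only 3 probes had a lower p, *Grsf1* and a pair of probes for opposite strands of 1 unnamed locus, and these 3 probes, or 0.00771% of those tested, were all that met the 3 criteria. By the size of the difference *mt-Nd6* was the 40th highest of the 38888, and a fold change over 1.5 in this direction was reached by 1.9% of the probes. The fold change and unadjusted p criteria together were met by 0.525% of the probes, and with a higher signal in Grsf1cKO by 0.1%.

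*mt-Nd6* passed the false discovery rate under 4 of 21 alternative settings. 3 of these used limma, namely normexp background correction (log2 difference 1.23, adjusted p = 0.102 from limma), a variance trend with intensity (1.53, adjusted p = 0.0947 from limma) and no normalization between arrays (1.71, adjusted p = 0.106 from limma). The fourth was a z-score test modeled on the methods, which uses the normal distribution and with 3 mice a group gives p-values that are too small, so that none is printed. Over the other 20 alternatives the adjusted p from limma lay between 0.0947 and 0.996. Over all 21 the log2 difference lay between 1.23 and 1.71, and the genotypes did not overlap under any. Its rank by p lay between 4 and 17.

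The slide and the repeat arrays moved the value little. Restricted to slide 2, where both genotypes are present, *mt-Nd6* had a log2 difference of 1.61 with limma, and with the slide as a block it was 1.58. On the first array of each mouse it was 1.52, and with the repeat array of Grsf1cKO 1 left out 1.55. WT 1 was measured on both slides, and its repeat array on slide 2 gave a log2 signal 0.16 lower than its first array on slide 1. When mice were left out singly the difference lay between 1.40 (without WT 1) and 1.68 (without Grsf1cKO 1).

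**Figure D2:**
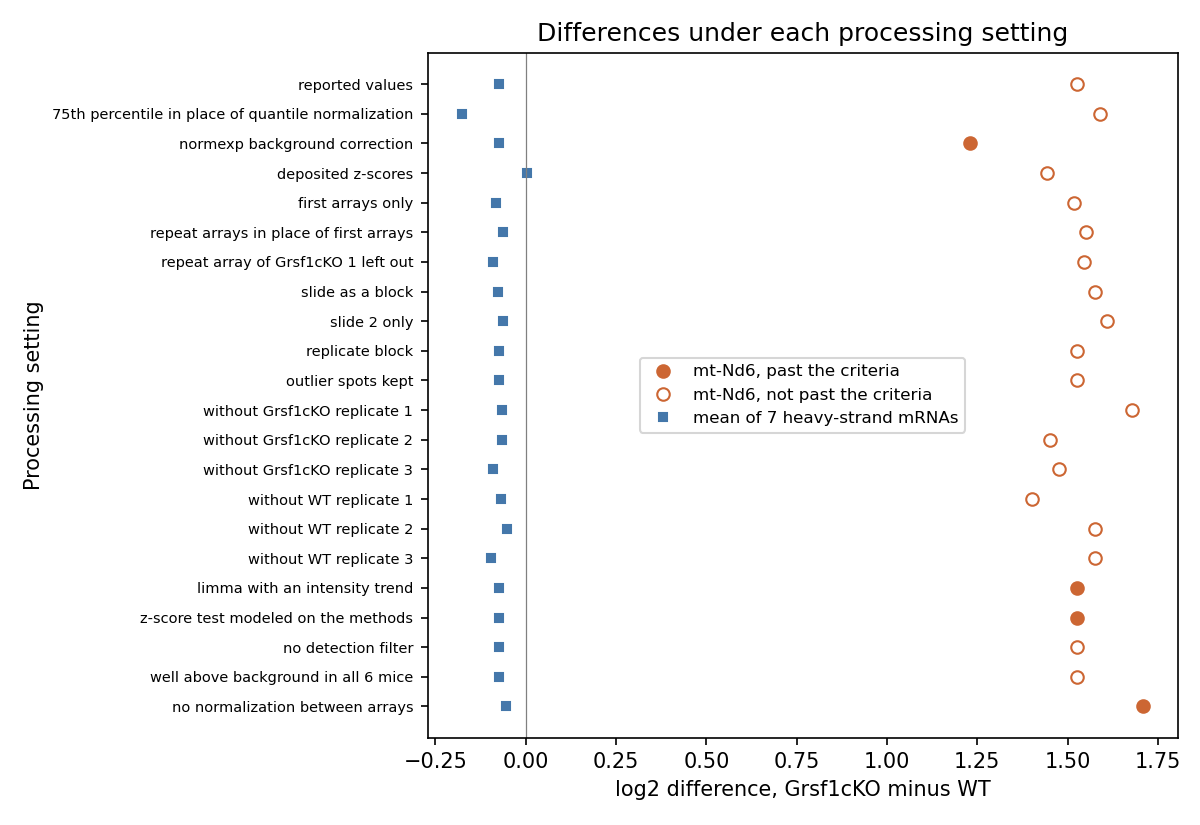
Log2 difference (Grsf1cKO minus WT) of *mt-Nd6* (orange circles, filled where it met all 3 criteria) and the mean difference of the 7 heavy-strand mRNAs (blue squares) under the reported and 21 alternative processing settings. The values of *mt-Nd6* lie between 1.23 and 1.71, and those of the heavy-strand mean between -0.18 and 0.0041.

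The 7 heavy-strand mRNAs gave some of the brightest spots of the array, with processed signals of 161810 to 438750 where the brightest spot that was not a control reached 613171. They ranked from 19 to 524 among the 59305 spots that were not controls. None of their spots was saturated, and all were well above background on all 8 arrays. The background around the spot was marked as non-uniform or as an outlier on all 8 arrays for *mt-Nd1* and on 3 for *mt-Nd5*. It was so marked on 2 arrays for *mt-Nd4*, on 1 for *mt-Co1* and on 0 for *mt-Nd2*, *mt-Co2* and *mt-Cytb*. Levels were not compared between probes, since each probe has its own brightness for the same amount of RNA.

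None of the 7 passed the criteria in limma, and their differences were small. They ranged from -0.20 (*mt-Nd1*) to -0.013 (*mt-Co1*) with a median of -0.033, against a median of -0.026 over all probes tested. With each array scaled to its 75th percentile in place of quantile normalization they ranged from -0.24 (*mt-Nd1*) to -0.15 (*mt-Co2*), and their mean was -0.18 in place of -0.073. All 7 values were below 0, as were 57.5% of all probes tested, but with the deposited z-scores 5 of the 7 were above 0, and without Grsf1cKO 2 or without WT 1 it was 2 of the 7. Among all 8 mRNAs limma called 0, while 1, *mt-Nd6*, had an unadjusted p under 0.05, as did 4.25% of all probes (1.29% higher and 2.96% lower in Grsf1cKO). The z-score test called the same 1 of the 8, and 380 of the 38888 probes. With an intensity trend in limma 3 of the 8 had an unadjusted p under 0.05, as did 3.55% of all probes, namely *mt-Nd6*, *mt-Nd1* (unadjusted p = 0.0186) and *mt-Nd5* (unadjusted p = 0.0304), each of the latter with an adjusted p of 0.982. For 3 of the 8 there was no overlap of genotypes, against 9.35% of all probes with a value in every mouse. For *mt-Nd6* Grsf1cKO lay above WT, as for 3.08% of all probes, and for *mt-Nd1* and *mt-Nd5* below it, as for 6.27%.

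**Figure D3:**
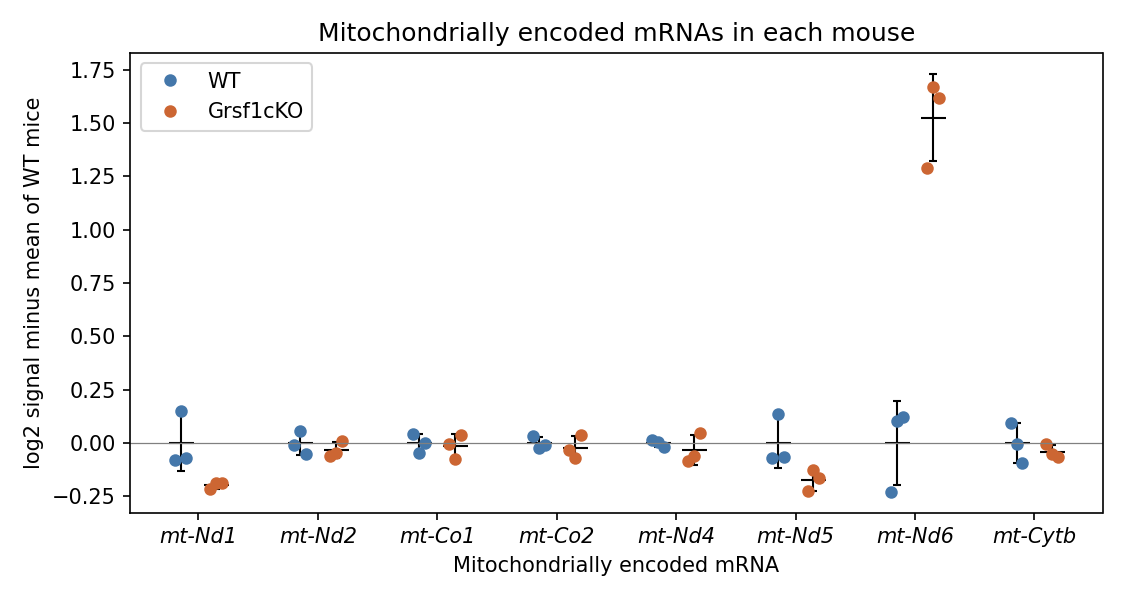
Log2 signal of each mitochondrially encoded mRNA in each mouse minus the mean of the WT mice (points: blue, WT; orange, Grsf1cKO; bars: mean and SD, n = 3 mice). *mt-Nd6* is the 1 mRNA with Grsf1cKO mice more than 1 above the WT mean, from 1.29 to 1.67, and the other 7 lie within 0.23 of it in every mouse.

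*mt-Nd1* and *mt-Nd5*, which encode subunits of the membrane arm of complex I, were the 2 heavy-strand mRNAs with no overlap between genotypes. For *mt-Nd1* (ENSMUST00000082392) the log2 signal was 17.33, 17.36 and 17.36 in Grsf1cKO 1, 2 and 3, compared with 17.47, 17.70 and 17.47 in WT 1, 2 and 3. The log2 difference was -0.20 (95% confidence interval -0.43 to 0.04, unadjusted p = 0.0886 and adjusted p = 0.996 from limma). The Grsf1cKO mice were closely grouped, and WT 2 was above the other 2 WT mice.

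For *mt-Nd5* (ENSMUST00000082418) the log2 signal was 17.34, 17.44 and 17.40 in Grsf1cKO 1, 2 and 3, compared with 17.50, 17.70 and 17.50 in WT 1, 2 and 3. The log2 difference was -0.17 (95% confidence interval -0.41 to 0.06, unadjusted p = 0.122 and adjusted p = 0.996 from limma). WT 2 was again the highest, and without it the difference was -0.12 for *mt-Nd1* and -0.10 for *mt-Nd5*. On slide 2 alone, which lacks WT 2, it was -0.12 and -0.10. The exact 2-sided permutation test gave p = 0.1 for both, the smallest possible.

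The other complex I mRNAs from the heavy strand, *mt-Nd2* and *mt-Nd4*, overlapped between genotypes. The log2 signal of *mt-Nd2* (ENSMUST00000082396) was 18.08, 18.09 and 18.15 in Grsf1cKO 1, 2 and 3, compared with 18.13, 18.20 and 18.09 in WT 1, 2 and 3. That of *mt-Nd4* (ENSMUST00000082414) was 17.74, 17.77 and 17.87 in Grsf1cKO mice and 17.84, 17.83 and 17.81 in WT mice. In both cases Grsf1cKO 1 was the lowest of the 6 mice, while Grsf1cKO 3 was the highest for *mt-Nd4* and lay among the WT mice for *mt-Nd2*. The differences of -0.032 and -0.033 had 95% confidence intervals from limma of -0.23 to 0.16 and -0.23 to 0.17, so that a change of either direction below about that size was not detectable with 3 mice of each genotype.

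*mt-Co1* and *mt-Co2* encode the catalytic core of complex IV. The log2 signal of *mt-Co1* (ENSMUST00000082402) was 18.67, 18.60 and 18.71 in Grsf1cKO 1, 2 and 3, compared with 18.71, 18.63 and 18.67 in WT 1, 2 and 3. That of *mt-Co2* (ENSMUST00000082405) was 18.36, 18.33 and 18.43 in Grsf1cKO and 18.43, 18.37 and 18.39 in WT mice. The genotypes were interleaved for both, with differences of -0.013 (95% confidence interval -0.21 to 0.19 from limma) and -0.022 (-0.22 to 0.17).

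*mt-Cytb* encodes cytochrome b, the mitochondrially encoded subunit of complex III, and is the neighbor of *mt-Nd6* on the mitochondrial genome, in the opposite orientation. Its log2 signal (ENSMUST00000082421) was 18.54, 18.50 and 18.49 in Grsf1cKO 1, 2 and 3, compared with 18.65, 18.55 and 18.46 in WT 1, 2 and 3. The WT mice spanned the Grsf1cKO mice on both sides, and the difference was -0.040 (95% confidence interval -0.25 to 0.18 from limma). On its other side *mt-Nd6* adjoins *mt-Nd5*, and in the RefSeq annotation of GRCm38.p6 the ends of these genes overlap.

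To compare *mt-Nd6* with the heavy-strand mRNAs directly, the log2 signal of each heavy-strand mRNA was subtracted from that of *mt-Nd6* in the same mouse. A fixed brightness of each probe then cancels between genotypes. This takes the probes to respond alike to a change in RNA, which was not tested. Processed signals were 149 to 657 for *mt-Nd6* and 161810 to 438750, near the top of the array, for the heavy-strand mRNAs. Relative to the WT mean, *mt-Nd6* minus the mean of the 7 heavy-strand mRNAs was 1.38 to 1.76 in Grsf1cKO mice and -0.23 to 0.17 in WT mice, a difference of 1.60 (standard error 0.164). The groups did not overlap against any of the 7 partners. The difference lay between 1.54 (against *mt-Co1*, standard error 0.189) and 1.72 (against *mt-Nd1*, standard error 0.149).

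Each of the 7 pairs gave p = 0.1 in the exact 2-sided permutation test, the smallest that 3 mice against 3 allow, and 0.1 after Benjamini-Hochberg adjustment over the 7, so that no pair could pass a threshold of 0.05. All pairs share *mt-Nd6* and the same mice. With normexp background correction the difference against the heavy-strand mean was 1.30, and when mice were left out singly it was 1.47 to 1.74.

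**Figure D4:**
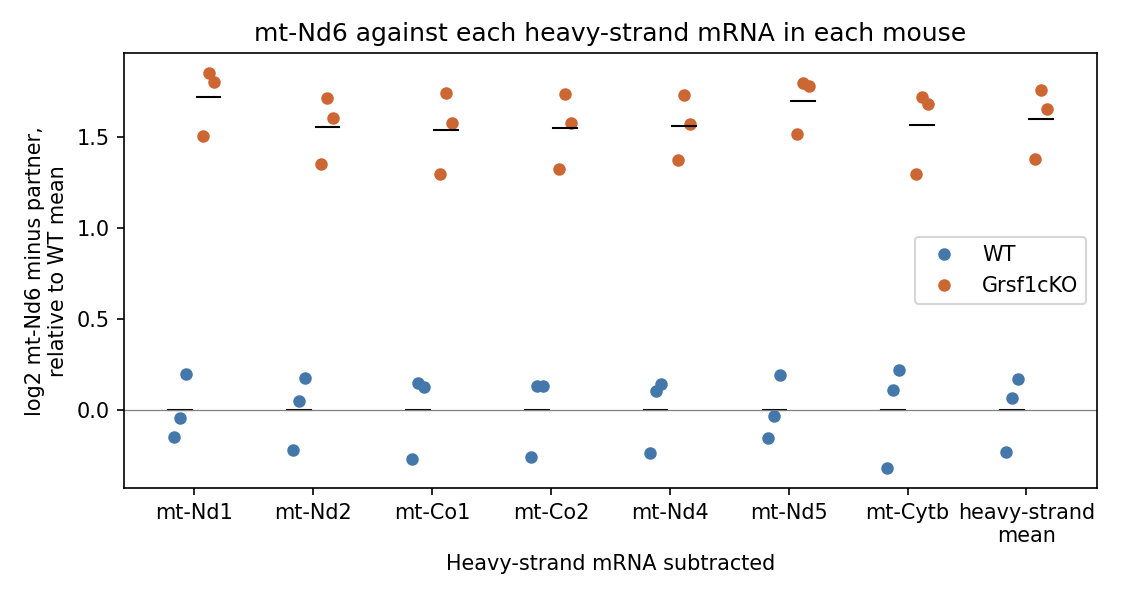
Log2 signal of *mt-Nd6* minus that of each heavy-strand mRNA, and minus their mean, in each mouse relative to the WT mean (points: blue, WT; orange, Grsf1cKO; lines: means of 3 mice). Against their mean the 3 Grsf1cKO mice lie between 1.38 and 1.76 and the 3 WT mice between -0.23 and 0.17.

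The repeat arrays show how far a value moved with the same mouse. For *mt-Nd6* the repeat array differed from the first by 0.077 in Grsf1cKO 1 and by -0.16 in WT 1 on the log2 scale. For the heavy-strand mRNAs the repeat differed by -0.018 to 0.14 in WT 1 and by 0.0080 to 0.22 in Grsf1cKO 1, the highest value in both mice being that of *mt-Nd4*. In the same order of mice the repeat of *mt-Nd1* differed by 0.016 and 0.13, and that of *mt-Nd5* by 0.0024 and 0.059. These shifts hold the error of the array measurement and not the spread between mice. In WT 1 they also hold the change from slide 1 to slide 2. Both arrays of Grsf1cKO 1 were on slide 2, but its repeat was the array that stood apart in the share of spots well above background.

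**Figure D5:**
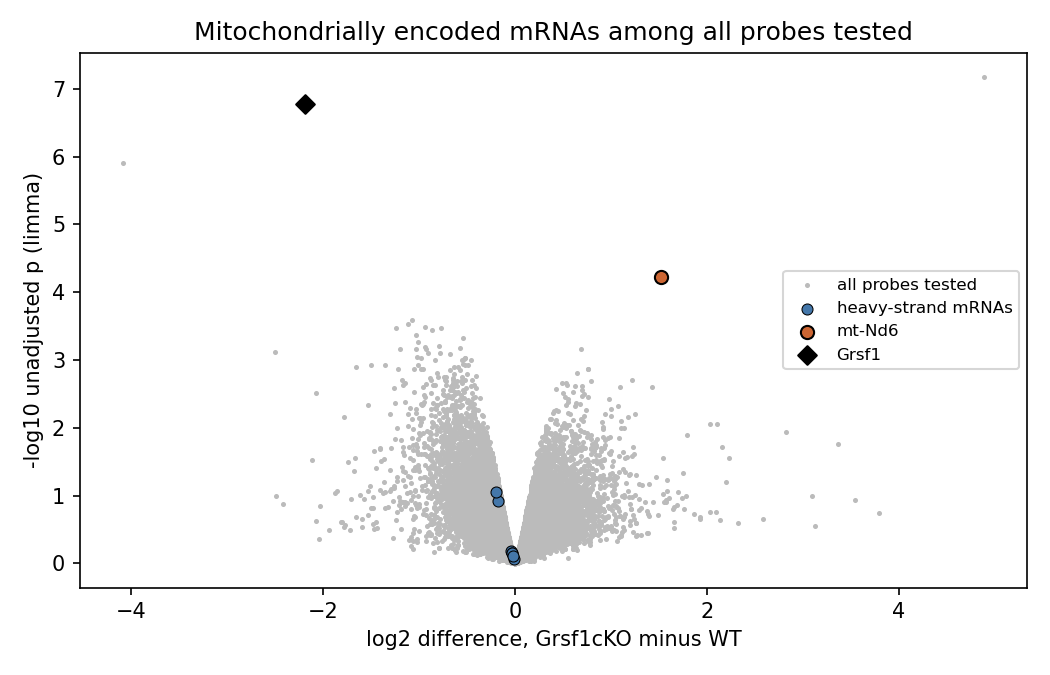
Log2 difference (Grsf1cKO minus WT) and -log10 of the unadjusted p from limma for the 38888 probes tested (gray), with the 7 heavy-strand mRNAs (blue), *mt-Nd6* (orange) and *Grsf1* (black diamond). *mt-Nd6* stands at 1.53 and the heavy-strand mRNAs lie between -0.20 and -0.013, and the pair of gray points with a lower p than *mt-Nd6* is the unnamed locus probed on both strands.

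The genes that transcribe mitochondrial DNA and process, protect or degrade its RNA showed no difference of the size of *mt-Nd6*. All 34 genes of this list other than *Grsf1* were tested, by their brightest probe, and 0 passed the criteria in limma. Of the 34, 0 had an unadjusted p under 0.05, against 4.25% of all probes, and 0 passed the z-score test, which called 380 of the 38888 probes. Their log2 differences ranged from -0.23 to 0.048 with a median of -0.054, against -0.026 over all probes. Of the 34, 30 were below 0, against 57.5% of all probes. This count was 31 with 75th percentile scaling (46.3% of all probes), 27 with normexp (55.8%) and 31 with the deposited z-scores (62.1%). With no normalization between arrays it was only 10 of the 34, against 17.3% of all probes. For 3 of the 34 there was no overlap of genotypes, all lower in Grsf1cKO, as 6.27% of all probes were.

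The 3 genes with the lowest p were *Twnk*, *Fastkd1* and *Mgme1*. *Twnk*, the helicase of mitochondrial DNA replication, had a difference of -0.19 and *Fastkd1*, of a family of mitochondrial RNA-binding proteins, of -0.16 (adjusted p = 0.996 from limma for each). *Mgme1*, a mitochondrial DNA exonuclease, had -0.22 (adjusted p = 0.996 from limma). Chosen for their role after their values were seen, *Supv3l1* and *Pnpt1*, the helicase and the nuclease of the complex that degrades mitochondrial RNA, had differences of -0.0055 and -0.17, and *Lrpprc* and *Slirp*, partners that stabilize heavy-strand mRNAs, had -0.13 and 0.038.

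Nuclear genes for partner subunits of the same complexes were also close to 0. Of 24 listed genes 23 had a probe and were tested, with log2 differences of -0.16 to 0.044 and a median of -0.048. Of the 23, 16 were below 0, against 57.5% of all probes. This count was 22 with 75th percentile scaling, against 46.3% of all probes, and 3 with the deposited z-scores, against 62.1%. None of the 23 passed the criteria in limma or in the z-score test, which called 380 of the 38888 probes. An unadjusted p under 0.05 from limma was found for 0 of the 23, against 4.25% of all probes. For 3 of the 23 there was no overlap of genotypes, all lower in Grsf1cKO, as 6.27% of all probes were. The lowest p was that of *Ndufs1*, the largest subunit of complex I, with -0.15, followed by *Ndufs8* of complex I with -0.087 and *Uqcrc1* of complex III with -0.079 (adjusted p = 0.996 from limma for each).

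Markers of fiber type and of other cell types were read beside these values. Of the 50 marker genes tested, limma called 0, and so did the z-score test, which called 380 of the 38888 probes. The slow light chain *Myl2* had an unadjusted p under 0.05 from limma, with a log2 difference of 0.63. It was the 1 marker with such a p, against 4.25% of all probes. The genotypes did not overlap for *Myl2* and *Myh2*, which were above WT, and for *Myh4*, which was below it, or 3 of the 50, against 9.35% of all probes. The summed normalized signal of the 7 slow-fiber markers was 233440 to 298680 in Grsf1cKO and 228260 to 243610 in WT mice, and that of the 5 macrophage markers 19553 to 37770 and 19091 to 22952. For the 9 fast-fiber markers it was 3343200 to 3441800 and 3365400 to 3371600. These ranges overlapped between genotypes. Gene by gene, 6 of the 7 slow-fiber markers had a difference above 0, with a median log2 difference of 0.51, and the slow myosin heavy chain *Myh7* had -0.59. Differences were above 0 for 5 of the 5 macrophage markers (median 0.19), 4 of the 4 fibroblast markers (0.16) and 4 of the 4 Schwann cell markers (0.087). They were below 0 for 3 of the 3 blood markers (-0.14) and 4 of the 5 adipocyte markers (-0.16), where 57.5% of all probes were below 0. Under 75th percentile scaling, normexp, the deposited z-scores and no normalization, the macrophage count was 5 of 5 throughout. Those of the slow-fiber, fibroblast, Schwann cell, blood and adipocyte markers were the same or lower by 1 gene. Of all probes 46.3%, 55.8%, 62.1% and 17.3% were below 0 under these settings, in that order. The number of fast-fiber markers above 0 moved more, at 1, 5, 9 and 5 of the 9 in the same order, against 6 as reported. For the skeletal muscle markers it was 1, 4, 5 and 4 of the 6, against 4 as reported. *Myl3*, the brightest slow-fiber marker and most of the slow-fiber sum, had a difference of 0.024. The sum of the 6 skeletal muscle markers did not overlap, with 1476700 to 1515500 in Grsf1cKO and 1435200 to 1462600 in WT mice, but the mean of their log2 signals relative to WT did, with -0.030 to 0.054 and -0.060 to 0.047. None of the 6 genes separated the genotypes by itself. With 75th percentile scaling 5 of the 6 were below 0, with a median of -0.088 in place of 0.039. The sum was taken with quantile normalization only. The part of the cell makeup in the signal of *mt-Nd6* was not tested.

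As a measure of likeness, Pearson's r of log2 signals over the 6 mice was taken between *mt-Nd6* and the brightest probe of each of 15842 named genes well above background in every mouse. The 5 highest were *Serinc2* (0.981), *Ten1* (0.980), *Tspan17* (0.964), *Slc22a21* (0.951) and *Fbxl22* (0.950). Their own log2 differences between genotypes were between 0.20 (*Slc22a21*) and 0.76 (*Fbxl22*), all smaller than the 1.53 of *mt-Nd6*. Since the *mt-Nd6* values of the genotypes form separate groups, this measure mostly ranks genes by how cleanly they separate the genotypes.

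For the mean of the heavy-strand mRNAs the 5 highest were *Borcs6* (0.991), *Tas2r131* (0.983), *Gm19710* (0.977), *Trim17* (0.977) and *Degs2* (0.974), of 15836 named genes. The mean itself was -0.090, -0.088 and -0.041 in Grsf1cKO 1, 2 and 3, against 0.0040, 0.040 and -0.044 in the WT mice in the same order, relative to the WT mean. The highest Grsf1cKO mouse and the lowest WT mouse lay at about the same value. With a spread of this size among mice, a likeness rests on differences of a few hundredths on the log2 scale.

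The array gives no position or sequence for the *mt-Nd6* probe in these files, so that mature *mt-Nd6* mRNA and longer light-strand RNA that contains the same bases cannot be told apart. The labeling kit used is known to prime from poly(A) tails, which the ND6 mRNA is known to lack in human cells, so that the amount of this RNA and its adenylation cannot be told apart either.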

How the data were processed

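The authors deposited, for each of 8 arrays, the output of Agilent Feature Extraction (version 12.0.3.1) with the intensity of each spot on a linear scale, corrected for background within the array and not normalized between arrays. They also deposited a score for each spot, a z-score of the log2 processed signal over the 62976 spots of its array, as recomputation to within 0.005 showed. Per the methods, the authors quantile normalized the signals and applied a z-test. For this report control spots were left out, outlier spots were set to missing, all arrays were brought to 1 signal distribution (quantile normalization), and a mean of log2 signals was taken per probe and then per mouse. limma 3.58.1 (R 4.3.3) was fitted to genotype alone, on the 38888 probes that were well above background in 3 or more of the 6 mice and had a value in 2 or more of either genotype. Its p-values were adjusted over these probes (Benjamini-Hochberg). A z-test modeled on the methods, run as an alternative on z-scores of the normalized log2 signals, divided the difference of mean z-scores by its standard error from the spread of each genotype and used the normal distribution, with the fold change, p and false discovery rate criteria used for limma. The further filters of the methods, on the z-ratio, the mean z-score and an analysis of variance, were not applied, so that its calls are not those of the full procedure. Normexp used the median signals with an offset of 50. The deposited scores were multiplied by 4.29, the mean SD of log2 signals, to compare them with log2 differences.

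Genes other than the mitochondrially encoded mRNAs were named through RefSeq accessions of GRCm38.p6 (32994 of 56605 probes), and the brightest probe of a gene was used. All 8 mRNAs were named, as were *Grsf1*, the 3 genes of lowest p in each of the 2 pathway lists and the 5 genes most like *mt-Nd6* or the heavy-strand mean. The single marker genes named were chosen after their values were seen. The rule for the members uses identifiers only, but the members and lists were chosen as a subject with earlier results of these data known. Precision is limited by the number of mice, 3 of each genotype, and since nothing in the labels says more of the mice, p-values measure the spread between these animals. The limma script was tested on simulated data. Alternatives covered normalization, background correction, the deposited scores, repeat arrays, slide, replicate number, outlier spots, detection filter, variance trend, z-test and each mouse left out.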

Additional observations from a re-analysis of the deposited data

How the results depend on the processing

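The log2 difference of *mt-Nd6* was above 0 under all 21 alternatives, several of which reuse the reported signals and so give the same difference. It was 1.23 with normexp, 1.53 with an intensity trend, 1.53 with the z-test and 1.71 with no normalization between arrays, the 4 settings in which it passed all criteria, and 1.40 to 1.68 with each mouse left out. The setting with no normalization was chosen after seeing the data. It moved the median of all probes tested to 0.14, and relative to this median *mt-Nd6* was at 1.57. Against the heavy-strand mean *mt-Nd6* was at 1.30 with normexp and at 1.47 to 1.74 with each mouse left out.

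The heavy-strand values moved both ways. With scaling to the 75th percentile all 7 were lower than reported, from -0.24 to -0.15, with a mean of -0.18, or -0.19 relative to the median of all probes. With the deposited z-scores the value was 0.021 for *mt-Nd2*, 0.050 for *mt-Co1*, 0.043 for *mt-Co2*, 0.021 for *mt-Nd4* and 0.036 for *mt-Cytb*. With each mouse left out it was -0.039 to 0.017 for *mt-Co1*, -0.050 to 0.0015 for *mt-Co2* and -0.085 to 0.0081 for *mt-Cytb*. *mt-Nd1* and *mt-Nd5* stayed below 0 under all 21 alternatives, from -0.24 to -0.086 and from -0.22 to -0.057. The cause of these shifts was not tested.

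Over all probes limma called 1 higher and 2 lower. The number higher was 2 with normexp, with an intensity trend and with no normalization, and 99 with the z-test, which left out some filters of the methods. The number lower was 1 on slide 2 alone and 281 with the z-test. With each mouse left out the number higher was 1 to 2 (2 without WT 2) and the number lower 1 to 2 (1 without WT 1 or WT 3). With the replicate block the number lower was 0, and *mt-Nd6* stayed at 1.53 (adjusted p = 0.526 from limma). Deviations of mice with the same number had correlations of 0.22, 0.13 and 0.03, so that the numbers were not taken to pair the mice. No mRNA had another probe to put in place of the brightest, so that this alternative was not run.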
